A study of Mus musculus with 6 samples.

Results

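The 37 genes described here encode the transcription factor NRF2, its inhibitor KEAP1, targets of NRF2 and the main enzymes that remove peroxides and superoxide. They were chosen as a list of symbols, and all 37 are rows of the deposited table of 13341 genes. Their mRNA was measured in hepatic stellate cells of the mouse, which store vitamin A and turn into matrix-producing myofibroblasts after liver injury. The groups were wild type and Nbr1 knock-out by label, with 3 libraries each. All cells were from liver and grew for 4 days in DMEM with 10% fetal bovine serum, glutamine and antibiotics under basal conditions, with no added oxidant or NRF2 activator in either group. The labels give no mouse strain, age or sex, no knock-out method, and no statement of whether replicates came from separate animals.

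NRF2, encoded by Nfe2l2, is made continuously and held at a low level because KEAP1 presents it to a CUL3 ubiquitin ligase for degradation. Electrophiles and oxidants modify cysteines of KEAP1, after which NRF2 accumulates, pairs with small MAF proteins and binds antioxidant response elements near its target genes. p62, the product of Sqstm1 and a relative of the NBR1 autophagy receptor, can bind KEAP1 and release NRF2, and Sqstm1 is itself a target of NRF2. NRF2 is controlled mainly through protein stability, so the mRNA levels given here do not measure its activity directly.

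Each value is a normalized count, that is, the reads of a gene in a library divided by a scaling factor of that library. The library kit reads the 3' end of each transcript, so a value does not grow with transcript length. Recovered totals were between 1508518 and 2383879 reads per library, and the 37 genes took between 0.556% and 0.64% of them. Nbr1 itself was at 256.9 ± 46.1 in wild type and 189.2 ± 14.1 in knock-out (SD, n = 3 each; log2 change -0.43, limma adjusted p = 0.22). Without wild type 1 the log2 change of Nbr1 was -0.58 (limma adjusted p = 0.0216), and within the library sets described next it was -0.11 and -0.59. Because only transcript ends were read, this does not check the deletion. Sqstm1 was at 10.9 to 24.0 in wild type and 644.6 to 859.1 in knock-out. Wild type 1 and knock-outs 1 and 3 stood apart from the other 3 libraries in many genes, whatever their label. For some of the 37 genes that depend on this split, changes without wild type 1 or within each set are also given. Leaving out wild type 1 leaves only wild types of the other set, against knock-outs of both sets. Label and set can then not be fully told apart. Of 11 stellate cell markers, 8 have a row, among them Col1a1, Dcn and Pdgfrb, while Lrat, Des and Reln have none.

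No gene of the list passed the test between the labelled groups. Of the 37, 34 reached 10 normalized counts in 3 or more libraries and were tested on log2(value + 1) with limma, and 0 were called at an adjusted p under 0.05 (edgeR and DESeq2 on the recovered reads also called 0). Over all 10540 tested genes limma called 6.92% (4.67% higher and 2.25% lower in knock-out), edgeR 7.27% and DESeq2 9.02%. At an unadjusted p under 0.05, 9 of the 34 passed, against 22.6% of all genes. The median log2 change was 0.10 for the list, with 19 genes positive and 15 negative, and -0.01 over all tested genes. The 3 knock-out values lay wholly above or wholly below the 3 wild-type values for 12 of the 34 (35.3%), 8 above and 4 below, against 30.1% of all tested genes, 16.5% above and 13.6% below. Slc7a11 passed the filter on low values only through its knock-out libraries.

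The precision differed widely among the genes. For 17 of the 34 the 95% interval of the log2 change lay wholly within ±1, a 2-fold change, and for the other 17 it reached beyond. The share of 50% was close to the 50.5% of all tested genes. In bulk RNA, fewer cells that express a gene and less RNA per cell cannot be told apart.

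**Figure D1:**
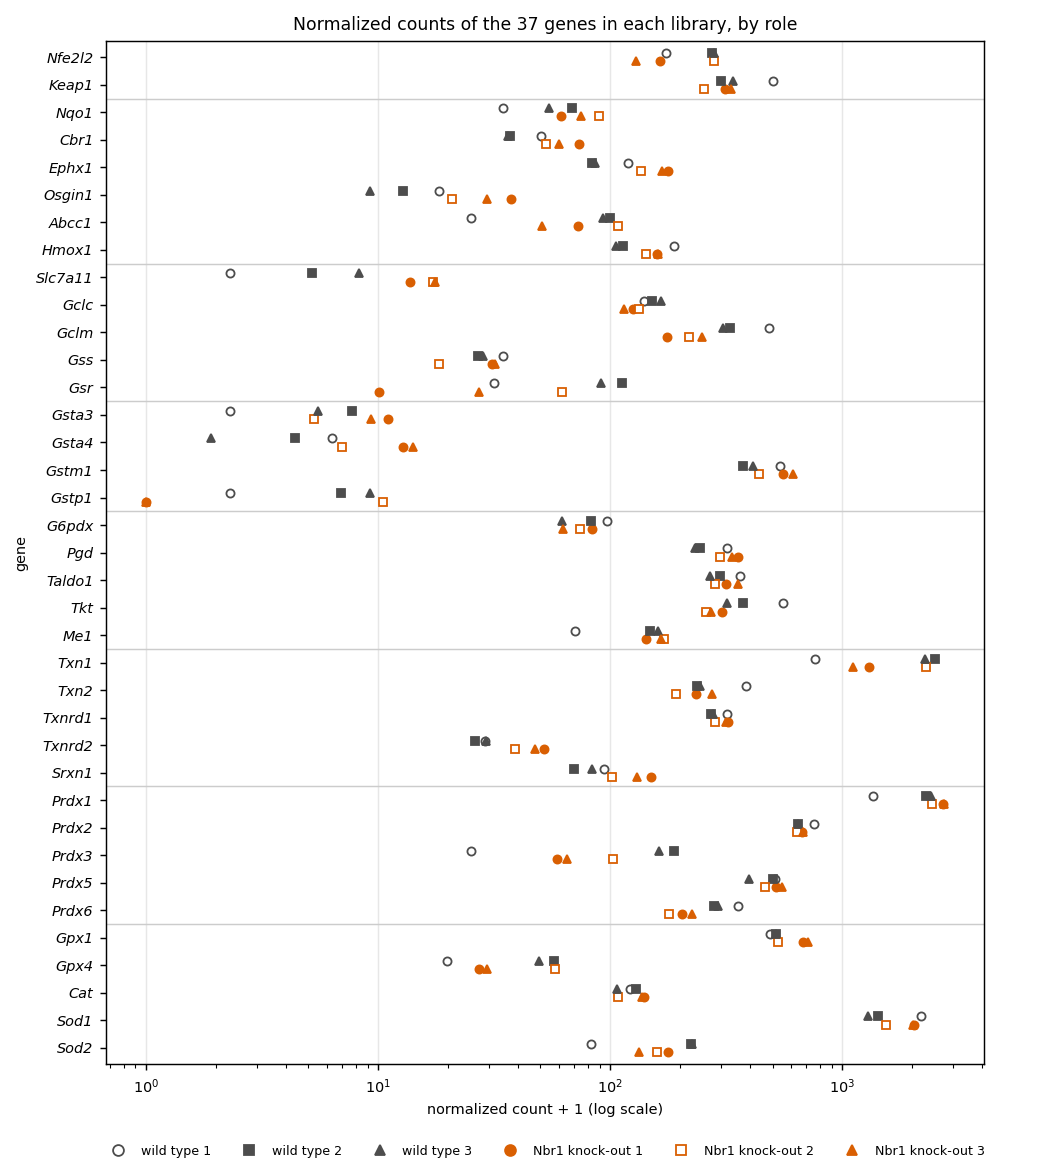
Normalized count + 1 (log axis) of each of the 37 genes in every library, grouped by role from regulators (top) to peroxidases, catalase and dismutases (bottom); grey symbols are wild type and orange symbols Nbr1 knock-out, with symbol shape giving the replicate and open symbols marking wild type 1 and knock-out 2. Prdx1, Sod1 and Txn1 lie furthest right, and Gstp1, Gsta3, Gsta4 and Slc7a11 lie furthest left.

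**Figure D2:**
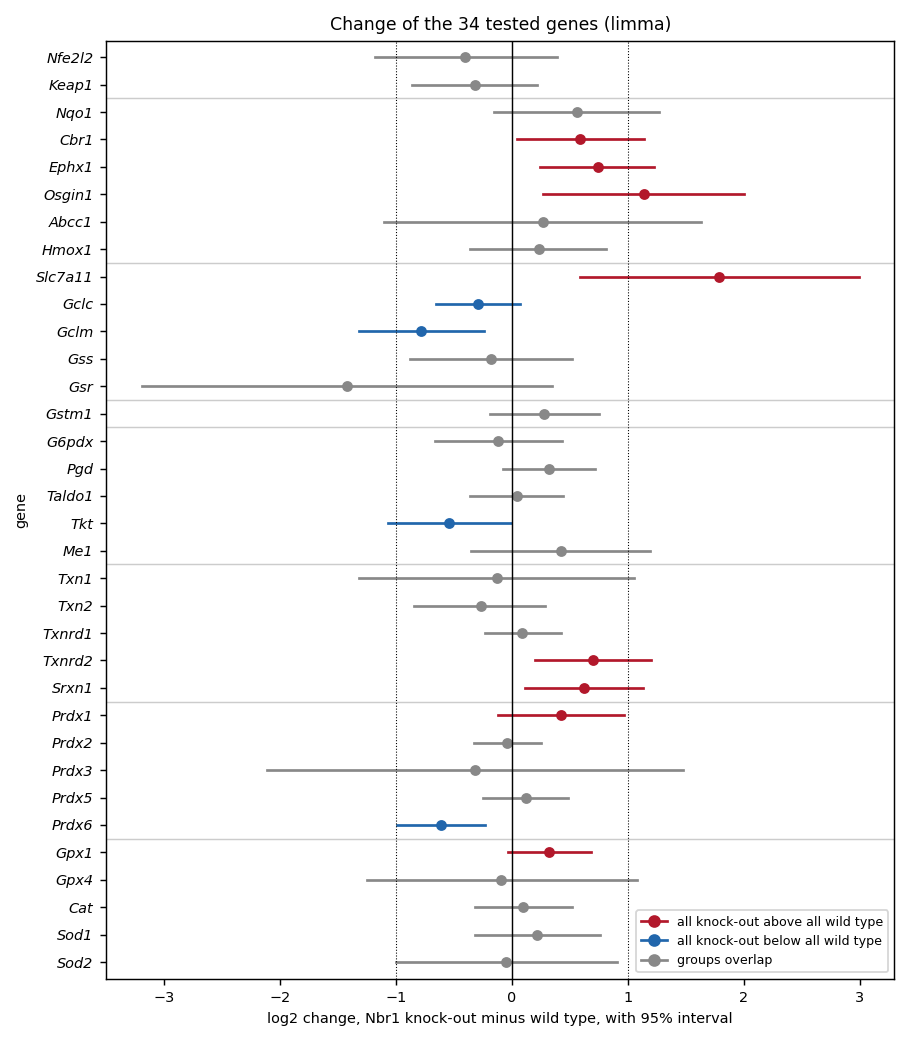
Log2 change from wild type to Nbr1 knock-out (points) with its 95% interval from limma (lines) for the 34 tested genes, grouped by role; dotted lines mark a 2-fold change. Of the 12 genes in colour, whose groups do not overlap, 8 are higher (red) and 4 lower (blue), and the intervals of Prdx3 and Gsr are the widest.

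The regulators themselves did not pass the test. Nfe2l2 was at 173.4, 273.8 and 278.7 normalized counts in wild types 1 to 3 and at 162, 278.5 and 128.2 in knock-outs 1 to 3. Its values followed the library split rather than the label, with wild type 2, wild type 3 and knock-out 2 between 273.8 and 278.7 and the other 3 libraries between 128.2 and 173.4. The log2 change was -0.40 (SE 0.33, 95% interval -1.18 to 0.39, limma adjusted p = 0.55). Keap1 was at 503, 298.1 and 337.8 in wild types 1 to 3 and at 311.4, 252.7 and 329.9 in knock-outs 1 to 3, so wild type 1 was the highest library and the other 5 overlapped. Its log2 change was -0.32 (SE 0.23, 95% interval -0.86 to 0.22, limma adjusted p = 0.474). The 95% interval of Keap1 lies within a 2-fold change in either direction, while that of Nfe2l2 does not.

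The antioxidant response element was looked for near the start sites as the motif TGACNNNGC, on both strands, in RefSeq windows from 250 bases before to 50 bases after each start (build GRCm38.p6; the submitters' processing notes name GRCm39). Of the 37 genes 31 had a window, and 10 of these (32.3%) held a match, against 14% of the 27025 genes of that table. Matches in 7 genes lay wholly before the start, and 5 of them are shown because they belong to a regulator (Nfe2l2), to genes whose groups did not overlap in opposite directions (Gclm and Prdx1), to a highly expressed gene (Sod1) and to a reductase gene with a narrow interval (Txnrd1). Each is written 5' to 3' on the gene's strand with the match in capitals, which read GCNNNGTCA where the motif is on the opposite strand.
Nfe2l2: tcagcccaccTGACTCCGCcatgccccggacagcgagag
Gclm: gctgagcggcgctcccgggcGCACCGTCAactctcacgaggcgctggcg
Prdx1: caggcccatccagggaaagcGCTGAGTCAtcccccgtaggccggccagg
Sod1: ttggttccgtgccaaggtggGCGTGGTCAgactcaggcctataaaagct
Txnrd1: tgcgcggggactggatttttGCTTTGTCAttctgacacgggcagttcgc
These stretches lie at chr2:75704875-75704913 (minus strand), chr3:122245403-122245451, chr4:116685446-116685494, chr16:90220686-90220734 and chr10:82859094-82859142 (plus strand), in the order shown. The match begins 240, 134, 133, 56 and 92 bases before the start, in the same order. The match of Prdx1 also holds the AP-1 motif TGACTCA, as does that of Me1, which spans the start site. A match in a window of this length is a description of the letters, not of binding, and response elements that lie farther from a start are outside it.

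Genes for quinone, carbonyl, epoxide and drug handling all had a positive log2 change, from 0.23 for Hmox1 to 1.14 for Osgin1, and 0 of 6 passed the test. Over all 10540 tested genes, 5159 were positive. Abcc1 turned to -0.38 without wild type 1, and the sign of Hmox1 differed between the library sets. In 3 of the 6 (50%) every knock-out library was above every wild-type library, against 16.5% of all tested genes. Ephx1, which encodes microsomal epoxide hydrolase, was at 118.7, 82.3 and 85.3 in wild types 1 to 3 and at 175.6, 134.1 and 166.1 in knock-outs 1 to 3. The lowest knock-out value was 134.1 and the highest wild-type value 118.7, and the means of 95.5 ± 20.2 and 158.6 ± 21.8 (SD, n = 3 each) differed 1.66-fold (log2 change 0.74, SE 0.21, limma adjusted p = 0.0906). Without wild type 1 the limma adjusted p of Ephx1 was 0.0126. Osgin1, a stress-induced inhibitor of growth, was at 17.3, 11.8 and 8.2 against 36.2, 19.8 and 28.5, a 2.27-fold difference of the means (log2 change 1.14, SE 0.37, limma adjusted p = 0.125, or 0.0304 without wild type 1). Knock-out 2 at 19.8 was only just above wild type 1 at 17.3. Cbr1, which encodes a carbonyl reductase, was at 49.4, 36.1 and 35.4 against 72.4, 51.6 and 59.3, a 1.52-fold difference of the means. Its log2 change was 0.59 (SE 0.23, limma adjusted p = 0.193, or 0.0485 without wild type 1). With a term for the library sets in the model it was 0.46 (limma adjusted p = 0.093).

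The classical NRF2 targets Nqo1 and Hmox1 overlapped between the groups. Nqo1, the quinone reductase gene often used to report NRF2 activity, was at 33.4, 67.2 and 53.6 in wild types 1 to 3 and at 60.6, 88.5 and 73.6 in knock-outs 1 to 3. Wild type 2 at 67.2 lay above knock-out 1 at 60.6, and the log2 change was 0.56 (SE 0.30, 95% interval -0.15 to 1.27, limma adjusted p = 0.335). Hmox1, which encodes the haem-degrading enzyme haem oxygenase 1, was highest in wild type 1 at 188.1, lower in wild types 2 and 3 at 112.5 and 104.4, and at 157.5, 141 and 160.2 in the knock-outs. Its log2 change was 0.23 (SE 0.25, 95% interval -0.36 to 0.81, limma adjusted p = 0.661). Without wild type 1 it was 0.49 (limma adjusted p = 0.05, not called). Within wild type 1 and knock-outs 1 and 3 it was -0.24, and within the other libraries 0.38. Abcc1, the export pump for glutathione conjugates, ranged from 24 to 98.3 in wild type and from 49.8 to 107.4 in knock-out.

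Glutathione genes pointed in different directions along the pathway, and 0 of 5 passed the test. Slc7a11, the cystine carrier that supplies cysteine, was at 1.3, 4.2 and 7.3 in wild types 1 to 3 and at 12.7, 16.3 and 16.6 in knock-outs 1 to 3. These are 14 reads over all wild-type and 47 over all knock-out libraries, at rank 10411 by level among the 10540 tested genes. Every knock-out value was above every wild-type value (log2 change 1.79, SE 0.51, limma adjusted p = 0.0906, or 0.04 without wild type 1). Gclm, the modifier subunit of the glutamate-cysteine ligase that makes the first bond of glutathione, was lower in every knock-out library, at 480.3, 325.8 and 305.1 against 173.8, 218.3 and 248. Its mean was 370.4 ± 95.7 in wild type and 213.4 ± 37.3 in knock-out (SD, n = 3 each), a log2 change of -0.78 (SE 0.23, limma adjusted p = 0.0987). DESeq2 gave Gclm an adjusted p of 0.054 and edgeR 0.0994. Wild type 1 was the highest library by a wide margin, and without it the log2 change was -0.58 (limma adjusted p = 0.0509).

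Gclc, the catalytic subunit of the same ligase, was at 138.8, 150.3 and 164.3 in wild types 1 to 3 and at 124, 132.4 and 113.9 in knock-outs 1 to 3. The groups were separated by a small gap, from 132.4 to 138.8, and the log2 change was -0.29 (SE 0.15, 95% interval -0.65 to 0.07, limma adjusted p = 0.328). The 95% interval of Gclc thus lies within a 2-fold change. Gss, which encodes glutathione synthetase, overlapped between the groups at 26 to 33.4 and 17.2 to 30.9. Gsr, the reductase that returns oxidized glutathione to its reduced form, was at 30.7, 111.7 and 89.9 against 9.1, 61 and 26.1. Gsr was higher in wild type 2, wild type 3 and knock-out 2 than in the other 3 libraries, and its log2 change of -1.42 carried an SE of 0.75 (95% interval -3.19 to 0.35, limma adjusted p = 0.328).

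Of the 4 glutathione transferase genes, which couple glutathione to electrophiles, only Gstm1 was abundant enough to be tested. Gstm1 was at 537.7, 370.4 and 412.2 in wild types 1 to 3 and at 553.1, 435.7 and 612.3 in knock-outs 1 to 3 (log2 change 0.28, SE 0.20, 95% interval -0.19 to 0.75, limma adjusted p = 0.473). Its 3 highest libraries were wild type 1 and knock-outs 1 and 3. Gsta3, Gsta4 and Gstp1 stayed under the filter. Gsta4 was at 5.3, 3.4 and 0.9 against 11.8, 6 and 13.1, so that every knock-out value was above every wild-type value, untested. Gsta3 ranged from 1.3 to 6.7 and from 4.3 to 10. Gstp1 had 1, 7 and 9 reads in wild types 1 to 3, 0 reads in knock-outs 1 and 3 and 11 reads in knock-out 2. These genes have close paralogs, so how their reads were assigned is uncertain.

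Genes that supply NADPH, the reductant of both the glutathione and the thioredoxin systems, were expressed in every library, and 0 of 5 passed. Tkt, a transketolase of the non-oxidative pentose phosphate pathway, was at 555, 371.2 and 317.8 in wild types 1 to 3 and at 303.2, 257 and 271.7 in knock-outs 1 to 3. Its groups did not overlap, and the log2 change was -0.54 (SE 0.22, limma adjusted p = 0.212), or -0.31 without wild type 1 (limma adjusted p = 0.131). Pgd, of the oxidative branch, was at 318.9, 242.7 and 231.5 against 353.9, 297.4 and 332.2 (log2 change 0.32, SE 0.17, limma adjusted p = 0.333). Pgd passed without wild type 1, with a log2 change of 0.46 (limma adjusted p = 0.0428). With a term for the library sets in the model, the log2 change of Pgd was 0.22 (limma adjusted p = 0.179). G6pdx, the entry enzyme of that branch, and Taldo1, the transaldolase gene, had log2 changes of -0.12 (95% interval -0.66 to 0.43) and 0.04 (-0.36 to 0.44). Me1, the cytosolic malic enzyme gene, was at 69.4 in wild type 1 and between 141.2 and 169.3 in the other 5 libraries.

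In the thioredoxin system, which passes electrons from NADPH to peroxiredoxins, 0 of 5 genes passed. Txnrd2, the mitochondrial thioredoxin reductase gene, was at 28, 25.2 and 28.1 in wild types 1 to 3 and at 50.7, 37.8 and 46.3 in knock-outs 1 to 3. All knock-out values were above all wild-type values, with means of 27.1 ± 1.7 and 44.9 ± 6.5 (SD, n = 3 each; 1.66-fold; log2 change 0.70, SE 0.21, limma adjusted p = 0.109). Srxn1, which encodes the sulfiredoxin that repairs over-oxidized peroxiredoxins, was at 93.4, 68.9 and 82.6 against 149.4, 100.6 and 129.3. Its groups did not overlap either (1.55-fold; log2 change 0.62, SE 0.21, limma adjusted p = 0.148, or 0.0487 without wild type 1).

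Txnrd1, the cytosolic thioredoxin reductase gene and a classical NRF2 target, varied little, at 316.2, 270.4 and 275.1 against 321.4, 281.9 and 315.6. Its 95% interval ran from -0.23 to 0.42 (log2 change 0.09, SE 0.14, limma adjusted p = 0.755). Txn1, the cytosolic thioredoxin gene and the 99th most abundant tested gene, was at 757.8, 2516.1 and 2269.8 in wild types 1 to 3 and at 1295.4, 2281.9 and 1105.9 in knock-outs 1 to 3. The 3 high libraries were wild types 2 and 3 and knock-out 2, and the log2 change was -0.13 (SE 0.50, 95% interval -1.32 to 1.05, limma adjusted p = 0.914). Txn2, the mitochondrial thioredoxin gene, was at 381.6 in wild type 1 and between 191.7 and 274.1 in the other 5 libraries.

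Among the peroxiredoxins, the thiol peroxidases that reduce hydrogen peroxide, 0 of 5 passed. Prdx6, whose product also acts on phospholipid peroxides, was lower in every knock-out library, at 353.6, 279.7 and 289.6 in wild types 1 to 3 against 201.9, 178.8 and 223.1 in knock-outs 1 to 3. Its means of 307.6 ± 40.1 and 201.2 ± 22.2 (SD, n = 3 each) gave a log2 change of -0.61 (SE 0.16, 95% interval -0.99 to -0.23). With a limma adjusted p of 0.0768 it came nearest to the threshold among the 34 genes, and without wild type 1 it passed (log2 change -0.50, limma adjusted p = 0.0433). Within wild type 1 and knock-outs 1 and 3 the log2 change of Prdx6 was -0.73, and within the other 3 libraries -0.67.

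Prdx1, the most abundant gene of the list at rank 61 of the tested genes, was at 1350.2, 2301.9 and 2403.3 in wild types 1 to 3 and at 2702.1, 2443.4 and 2738.7 in knock-outs 1 to 3. The groups did not overlap, but the gap between wild type 3 and knock-out 2 was small, and the log2 change of 0.42 (SE 0.23, limma adjusted p = 0.345) was 0.16 without wild type 1. Prdx2 varied little, from 640.8 to 753.8 and from 636 to 672.8 (log2 change -0.04, 95% interval -0.33 to 0.25). Prdx3, the mitochondrial peroxiredoxin gene, had the largest SE of the 34 genes, with 24, 186.4 and 161.6 against 57.9, 101.4 and 64.1. Its log2 change was -0.32 (SE 0.76), and without wild type 1 it was -1.25 (limma adjusted p = 0.0165). Prdx3 had opposite signs in the library sets, with a log2 change of 1.31 within wild type 1 and knock-outs 1 and 3 and -0.77 from wild types 2 and 3 to knock-out 2. Prdx5 had a log2 change of 0.12 (95% interval -0.25 to 0.48).

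Glutathione peroxidase, catalase and superoxide dismutase genes gave 0 calls among 5. Gpx1, the cytosolic glutathione peroxidase gene, was at 487, 515.6 and 515.7 in wild types 1 to 3 and at 674.4, 528.6 and 710.8 in knock-outs 1 to 3. The groups were apart by a narrow margin set by knock-out 2 (log2 change 0.32, SE 0.15, 95% interval -0.03 to 0.68, limma adjusted p = 0.267). Sod1, the cytosolic superoxide dismutase gene at rank 97, was at 2176, 1418.4 and 1283.8 against 2031.3, 1533.3 and 2007.7. Its high libraries were wild type 1 and knock-outs 1 and 3, and the log2 change was 0.22 (SE 0.23, 95% interval -0.32 to 0.76, limma adjusted p = 0.645). Cat, the catalase gene, ranged from 106.2 to 128.5 and from 106.6 to 139.4 (95% interval -0.32 to 0.52). Sod2, the mitochondrial dismutase gene, was at 81.4, 221.7 and 224.3 against 176.5, 158.1 and 131.7. Gpx4, which protects membranes from lipid peroxides, was between 18.7 and 28.5 in wild type 1 and knock-outs 1 and 3 and between 48.1 and 56.7 in the other 3 libraries.

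The split between the library sets ran through the list in both directions. For 15 of the 34 tested genes, the values of wild type 1 and knock-outs 1 and 3 did not overlap with those of the other 3 libraries, against 40% of all tested genes. Higher in wild types 2 and 3 and knock-out 2 were 6 genes, namely Nfe2l2, Abcc1, Gsr, Txn1, Prdx3 and Gpx4. Lower there were 9, namely Hmox1, Gss, Gstm1, Pgd, Taldo1, Txnrd1, Prdx2, Prdx5 and Sod1. The sets were drawn from the same data, so these counts are a description. What separates the sets is not given in the labels, and the part of any technical step in it was not tested.

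**Figure D3:**
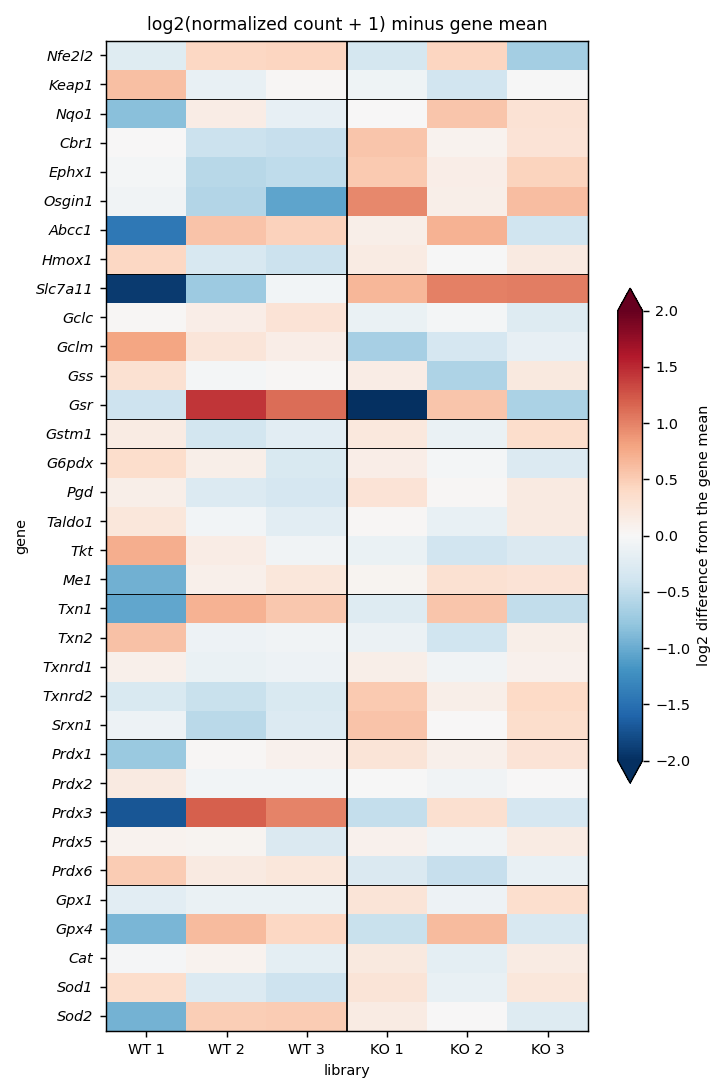
Difference of log2(normalized count + 1) from each gene's mean over the 6 libraries, for the 34 tested genes (rows, grouped by role) in wild types 1 to 3 and knock-outs 1 to 3 (columns); red is above and blue below the mean, and colours saturate at ±2. Txn1, Prdx3 and Gpx4 are red in wild types 2 and 3 and knock-out 2, while Slc7a11 and Ephx1 are red in all 3 knock-outs.

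With a term for the library sets in the model, 11 of the 34 genes passed, 6 upward and 5 downward in knock-out. That is 32.4%, against 26.5% of all tested genes in the same fit. Those higher were Slc7a11 (log2 change 2.07, SE 0.43), Osgin1 (0.90, SE 0.28), Nqo1 (0.77, SE 0.20), Txnrd2 (0.63, SE 0.21), Ephx1 (0.60, SE 0.13) and Srxn1 (0.49, SE 0.15). Those lower were Gclm (-0.87, SE 0.18), Prdx6 (-0.70, SE 0.11), Tkt (-0.68, SE 0.14), Keap1 (-0.49, SE 0.12) and Txn2 (-0.45, SE 0.12). Their limma adjusted p ranged from 0.00215 for Prdx6 to 0.0492 for Txnrd2. The sets were drawn from these libraries themselves, which the p-values of this fit do not take into account. Wild type 1 was the highest library for Keap1 and Txn2 and the lowest for Nqo1. Without it, their log2 changes were -0.10, -0.05 and 0.29 (limma adjusted p = 0.651, 0.849 and 0.363), in the order Keap1, Txn2 and Nqo1. From wild types 2 and 3 to knock-out 2 alone, within 1 set, they were -0.33, -0.31 and 0.55, untested. Without wild type 1, 8 of the 34 passed (23.5%), against 21.1% of all tested genes: Slc7a11, Osgin1, Ephx1, Cbr1, Srxn1 and Pgd were higher and Prdx3 and Prdx6 lower. The wild types left in that fit are all of the set of knock-out 2, so it cannot fully tell label from set.

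Within the sets, 26 of the 34 genes (76.5%) had the same sign of change in both, against 68.4% of all tested genes. For genes whose groups do not overlap this sign is fixed in advance. The log2 change of Gclm was -1.21 within wild type 1 and knock-outs 1 and 3 and -0.53 within the other libraries. Ephx1 gave 0.52 and 0.67, Osgin1 0.85 and 0.94, and Slc7a11 2.73 and 1.40. Each set holds only 1 library of one of the labels, and these changes carry no test.

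**Figure D4:**
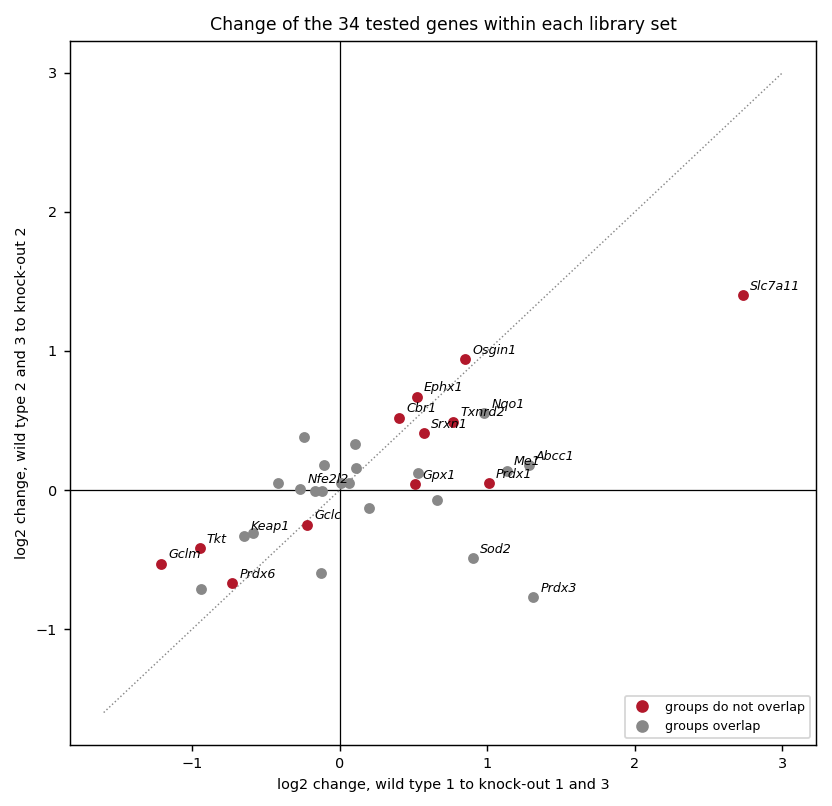
Log2 change from wild type to Nbr1 knock-out within wild type 1 and knock-outs 1 and 3 (horizontal axis) and within wild types 2 and 3 and knock-out 2 (vertical axis), 1 point per tested gene, with red points for genes whose groups do not overlap and a dotted line for equal change. Osgin1 and Ephx1 lie near the line, while Prdx3 is at 1.31 and -0.77.

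Other genes of the same pathways, from a second list of 77 symbols, are given for comparison. That list was written with earlier results of these data known, so its counts are a description and no independent evidence. Of these, 70 have a row and 62 were tested, and 13 passed (21%, against 6.92% of all tested genes), of which 8 rose and 5 fell in knock-out. Among the 62, 4 passed the filter on low values only through wild type or only through knock-out. Of those, Gstm4, Gstk1 and Trim16 are counted among the 13. The median log2 change of this list was 0.16. Sqstm1, the p62 gene, had the smallest p, with means of 15.9 ± 7.1 and 773.7 ± 113.7 (SD, n = 3 each; 48.7-fold; log2 change 5.59, SE 0.30, limma adjusted p = 0.000337). Sqstm1 is broadly expressed in mammalian cells, and the low values stood in the libraries labelled wild type. Every direction given here rests on the labels as deposited.

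Selenop, which encodes the secreted selenium carrier selenoprotein P, was at 58.7, 125.1 and 109 in wild types 1 to 3 and at 510.5, 579.3 and 523.3 in knock-outs 1 to 3. It rose 5.51-fold (log2 change 2.52, SE 0.28, limma adjusted p = 0.00397). Oplah, the 5-oxoprolinase gene of glutathione turnover, rose 9.55-fold, from 12, 3.4 and 4.5 to 70.6, 60.2 and 59.3 (log2 change 3.24, SE 0.43, limma adjusted p = 0.00728). The call of Oplah was lost without knock-out 1 (limma adjusted p = 0.0579). Blvrb, a biliverdin reductase gene, rose 2.02-fold, from 51.3 ± 2.9 to 103.8 ± 7.7 (SD, n = 3 each). Its log2 change was 1.00 (SE 0.16, limma adjusted p = 0.016). Blvra, the other biliverdin reductase gene of the second list, was not called (log2 change 0.31, SE 0.21, limma adjusted p = 0.461). Leaving out wild type 1 kept the call of Blvrb, and leaving out each of the others ended it (limma adjusted p up to 0.116). The other 4 that rose, named after their values were seen, were the transferase gene Gstt1 (2.76-fold), the extracellular dismutase gene Sod3 (2.87-fold), Trim16 (log2 change 1.43) and Entpd5 (1.94-fold), and each lost its call without any single knock-out library and without wild type 3, all but Entpd5 also without wild type 2. Trim16, at 6.7 to 8.4 in wild type, passed the filter on low values only through knock-out.

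The 5 genes that fell were mostly glutathione transferases, a family with many members on the second list. Of the same family Gstt1 rose, and Gstm2, Gstt3 and Gstz1 were not called. Every knock-out value of Gstz1 was above every wild-type value (log2 change 0.68, SE 0.24, limma adjusted p = 0.153, or 0.0132 without wild type 1). The groups of Gstm2 and Gstt3 overlapped. Gstm4 had 60 reads over all wild-type libraries and 1 over all knock-out libraries, a ratio of 61.4 (exact 95% binomial interval 10.6 to 2460; limma adjusted p = 0.00428). Gstk1, the mitochondrial and peroxisomal kappa-class transferase gene, had 67 reads against 3, a ratio of 22.8 (7.49 to 114; limma adjusted p = 0.00654). Both passed the filter on low values only through wild type. The other 3, named after their values were seen, were Gsto1 (199.5 ± 18.0 to 106.8 ± 8.3), Gstm5 (107.3 ± 4.1 to 65.7 ± 4.5) and the prostaglandin reductase gene Ptgr1 (130.1 ± 19.5 to 63.8 ± 13.4; SD, n = 3 each). These 3 were likewise called only with all 6 libraries or without wild type 1, and Gstm5 was not called in edgeR (adjusted p = 0.0535) or in limma with no filter on low values (adjusted p = 0.0565). Gstm2, next to Gstm1 in its family, had a log2 change of 0.05 (SE 0.38, limma adjusted p = 0.961), and how reads were shared within the mu class is uncertain.

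**Figure D5:**
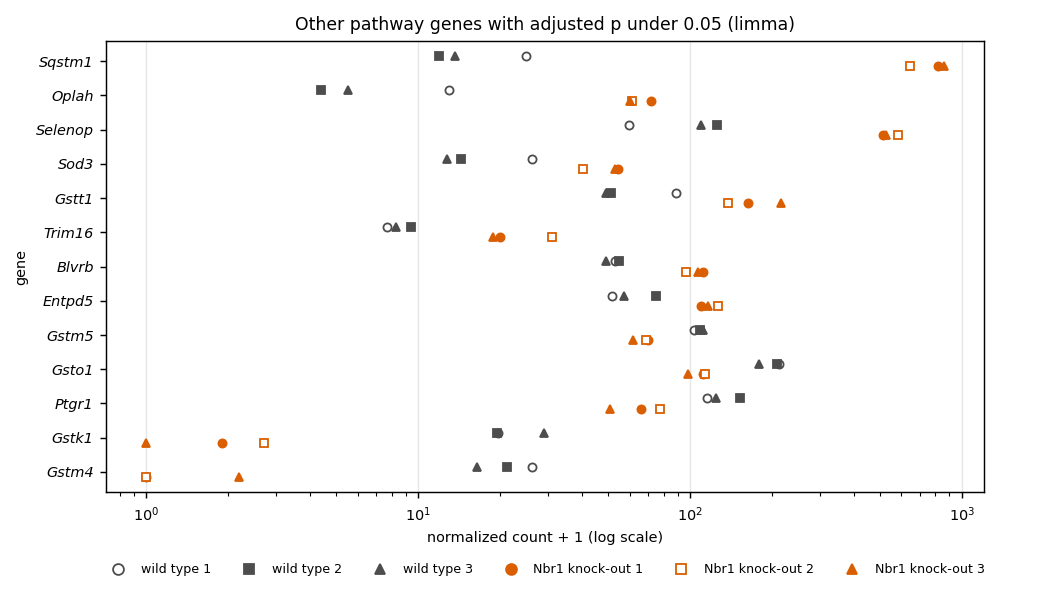
Normalized count + 1 (log axis) in each library for the 13 other pathway genes past the limma threshold, ordered from the largest increase (Sqstm1) to the largest decrease (Gstm4); grey is wild type and orange Nbr1 knock-out, with shape giving the replicate and open symbols marking wild type 1 and knock-out 2. The groups do not overlap in any of the 13 genes, which were selected by that test. Of all 62 tested genes of the second list, 24 do not overlap (38.7%), against 30.1% of all tested genes. Gstm4 and Gstk1 reach 0 in knock-out libraries.

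Mafg, a small MAF partner, was at 290.8, 332.6 and 389.5 in wild types 1 to 3 and at 233.5, 260.4 and 237.3 in knock-outs 1 to 3, with no overlap (log2 change -0.46, SE 0.15, limma adjusted p = 0.139). Mafg passed without wild type 1 (log2 change -0.56, limma adjusted p = 0.0256) and with the term for the library sets (-0.38, limma adjusted p = 0.0372). Cul3, the ligase scaffold, had a log2 change of -0.11 (SE 0.29, limma adjusted p = 0.872), and Bach1, the repressor that competes for response elements, -0.01 (SE 0.24, limma adjusted p = 0.988). These 3 genes were picked for their role after their values were seen.

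Markers of other liver cells were at these levels. The 4 hepatocyte markers with a row summed to 33.6 to 48.1 normalized counts in wild type and 13.8 to 43.9 in knock-out, with Alb at 5.2 to 26.3 over the 6 libraries, while 4 others of the list have no row. The 2 macrophage markers with a row, of 9 listed, summed to 6.4 to 14.7 and 6.9 to 14.2. The 1 endothelial marker with a row, of 6 listed, was at 3.4 to 5.4 and 6.0 to 8.3. Cholangiocyte markers, 4 of 5 with a row, summed to 138.6 to 150.8 and 541.3 to 570.8, with Sox9 at 15.3 ± 5.8 and 478.6 ± 15.3 (SD, n = 3 each). Sox9 was the only cholangiocyte marker called higher, while Spp1 fell from 74.6 ± 4.6 to 29.9 ± 3.0 (limma adjusted p = 0.0101) and Krt19 was at 49.4 ± 1.9 and 33.7 ± 3.0 (SD, n = 3 each; limma adjusted p = 0.148). Krt7, untested, had means of 7.1 and 9.6. Mesothelial markers, 5 of 6 with a row, summed to 596.5 to 671.1 and 363 to 470.1. Among them Upk3b fell from a mean of 181.5 to 68.0 (limma adjusted p = 0.0112). Msln was higher in every knock-out library, with means of 14.2 and 22.8 (limma adjusted p = 0.268). The 8 stellate markers with a row summed to 5337.9 to 6600 and 12184.3 to 13245.9. Of them, 5 were called higher and 0 lower, against 4.67% and 2.25% of all tested genes. Col1a1 and Dcn had the largest values in these sums. Col1a1 had means of 2169.4 in wild type and 5538.8 in knock-out, and Dcn of 2687.1 and 3991.4. The part of these marker differences in the values above was not tested, nor was any difference in cell types.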

How the data were processed

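The 6 libraries hold mRNA of stellate cells and were made per the labels' protocols from 200 ng of total RNA with a Lexogen QuantSeq 3' forward kit and read single-end over 75 nucleotides. The authors deposited 1 column of normalized counts (a signal, not raw reads) for each library. DESeq2 and GRCm39 are named, without a version or role, per the submitters' processing notes. The labels mention optional molecular identifiers; whether they were used in counting, and the aligner, counter, annotation and strand setting, are not given in the sources used here. Dividing by the smallest step of each library gave whole reads for 100% of values (to within 0.01), in total 1508518 to 2383879 a library. No row sums to fewer than 9 reads. Intervals from reads cover counting error only.

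Genes reaching 10 in 3 or more libraries entered a two-sided limma test (3.58.1, under R 4.3.3) on log2(value + 1), its variance prior following the mean, with Benjamini-Hochberg adjustment at 0.05 over all 10540 tested genes. This scale understates changes of low genes. Folds are ratios of group means of normalized counts. P-values measure the spread between these libraries, which may be technical in part. Alternatives were pseudocounts of 0.5 and 5, TMM scaling, no filter, a minimum mean of 50, edgeR 4.0.16 and DESeq2 1.42.0 on recovered reads, the replicate number as a block, a term for the library sets, and each library left out in turn. The functions were tested on simulated data.

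The members, the second gene list and the marker lists were chosen with earlier results of these data known. Values in every library are given for members past the threshold, members whose groups do not overlap, Nfe2l2, Keap1 and the 3 most abundant members, and, chosen after their values were seen, for others that show the library split; of other pathway genes the 6 with the smallest p are named, with any needed for a count of 5 or fewer.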

Additional observations from a re-analysis of the deposited data

How the results depend on the processing

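With 3 libraries a group, the 95% interval of 17 of the 34 tested members reached beyond a 2-fold change. No member passed under either pseudocount, TMM scaling, no filter, a minimum mean of 50, edgeR, DESeq2 or the replicate block, and the direction of all 34 tested members held there; with a mean of at least 50, 5 of them were not tested. With the term for the library sets 11 members passed, 6 higher and 5 lower, and leaving out each library gave 0 to 8 (0 to 6 higher, 0 to 2 lower), 8 being without wild type 1.

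Of the other pathway genes, 13 in the main test, 8 passed with a mean of at least 50 (5 higher, 3 lower) and 30 with the set term (21 higher, 9 lower). Leaving out each library gave 4 to 21 (2 to 13 higher, 2 to 8 lower). Over all genes the count of 729 became 380 with a mean of at least 50, 2791 with the set term and 200 to 2228 without 1 library. With the replicate block it was 476 for all genes and 6 for other pathway genes (4 higher, 2 lower), with Gstm5 at a limma adjusted p of 0.127. The numbers do not pair the libraries: deviations from the group mean correlated at 0.446 and 0.70 for numbers 1 and 2 but at -0.624 for number 3, and of the wild types, number 1 had the highest correlation of levels with both knock-outs 1 and 3.

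The sign of 5 uncalled members turned with the set term, to a log2 change of -0.06 for Taldo1, 0.30 for Txn1, 0.27 for Prdx3, 0.32 for Gpx4 and 0.20 for Sod2. Leaving out 1 library turned the sign of 10 uncalled members, whose log2 changes then ran from -0.38 to 0.61 for Abcc1, -0.33 to 0.08 for Gss, -0.30 to 0.03 for G6pdx, -0.06 to 0.16 for Taldo1, -0.69 to 0.18 for Txn1, -0.08 to 0.04 for Prdx2, -1.25 to 0.20 for Prdx3, 0.00 to 0.18 for Prdx5, -0.56 to 0.21 for Gpx4 and -0.53 to 0.20 for Sod2. The cause was not tested.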

Other observations

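Of the second list, 8 genes with few reads stayed under the filter on low values and were not tested. The groups did not overlap for Aldh3a1, Aox1, Gstm6 and Gstm7, and overlapped for Mgst2, Mgst3, Akr1b3 and Abcc3. No share over all genes under the filter is given here. Aldh3a1, an aldehyde dehydrogenase gene, had 0, 5 and 1 reads in wild types 1 to 3 and 12, 15 and 7 reads in knock-outs 1 to 3. Aox1, the aldehyde oxidase gene, had 2, 6 and 2 reads against 12, 8 and 8. Gstm6 and Gstm7, mu-class transferase genes, were lower in knock-out, with 29 reads against 7 and 36 reads against 12 over the group. The choice to give reads for Aldh3a1, Aox1, Gstm6 and Gstm7 followed a look at their values. Reads of the transferases may be shared with close paralogs.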
